A study of Mus musculus with 6 samples.

Results

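Ribosome biogenesis genes downstream of Myc were examined in intestinal adenomas of 2 mouse models of inherited polyposis. The set holds 34 genes, given by symbol and found in the table of estimated read counts by their Ensembl identifiers through the GENCODE annotation, release 21 for mouse. All 34 had a row among the 34866 genes of the table, and all 34 passed the filter on low counts that left 16536 genes for testing.

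Bulk RNA was sequenced from excised adenomas of ApcMin/+ and Apc1322T/+ mice, 3 libraries per genotype. All mice were C57BL/6J, carried their Apc allele in the germline in 1 copy, and were between 100 and 120 days old. Both alleles truncate the Apc protein, which holds β-catenin in check. The ApcMin truncation is short and has lost control of β-catenin, whereas the longer Apc1322T truncation keeps part of it. No other allele or treatment is given for these mice, and neither normal tissue nor adenomas with Bcl9 or Pygo deleted are part of these 6 libraries. By the study's methods, RNA from several extractions of the same mouse was usually pooled for a sample, and the libraries were run together on a single lane. A truncating allele cannot be read from gene counts, so the genotype labels could not be checked here.

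A ribosome is built in the nucleolus. RNA polymerase I copies the ribosomal DNA into a long precursor, small nucleolar ribonucleoproteins (snoRNPs) guide the modification and cutting of this precursor, and separate sets of assembly factors fold it with ribosomal proteins into the small and the large subunit. Myc is a transcription factor that binds DNA together with Max and raises the expression of many of these factors in growing cells, and in the intestinal epithelium Myc itself is a target of β-catenin. Myc and Max prefer the letters CACGTG, known as an E-box.

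Several of these genes carry further ribosome biogenesis RNAs within their own span, mostly in introns. Small nucleolar RNA (snoRNA) genes annotated within a gene on the same strand were found in 8 of the 34, 23 in all, of which 5 lie in Nop56, 4 in Nop58, 3 each in Gnl3, Ncl and Wdr43, 2 each in Ppan and Tsr1, and 1 in Dkc1. The following are shown because they sit in the 4 host genes whose values are singled out further on. They are given 5′ to 3′ on the strand of the gene, from the GENCODE transcripts on GRCm38. Capitals mark the letters TGATGA within the first 30 bases (the box C letters) and CTGA within the last 20 bases (the box D letters). These boxes are what the Nop56, Nop58 and Fbl proteins assemble on, and a sequence without capitals at one end lacks exactly these letters there.
Snord110, in Nop56, chr2:130275506-130275573, plus strand: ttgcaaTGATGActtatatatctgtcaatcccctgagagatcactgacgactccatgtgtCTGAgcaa
Snord57, in Nop56, chr2:130278016-130278087, plus strand: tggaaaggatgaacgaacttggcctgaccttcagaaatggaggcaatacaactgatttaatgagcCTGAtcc
Gm24067, in Ppan, chr9:20889484-20889568, plus strand: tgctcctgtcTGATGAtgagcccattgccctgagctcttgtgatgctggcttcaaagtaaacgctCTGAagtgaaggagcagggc
Gm23008, in Ppan, chr9:20890757-20890836, plus strand: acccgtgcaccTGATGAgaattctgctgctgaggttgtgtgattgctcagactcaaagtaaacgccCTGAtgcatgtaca
Snord69, in Gnl3, chr14:31014287-31014366, minus strand: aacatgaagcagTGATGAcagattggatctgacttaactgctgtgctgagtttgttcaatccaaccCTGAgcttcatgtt
Snord19, in Gnl3, chr14:31016206-31016281, minus strand: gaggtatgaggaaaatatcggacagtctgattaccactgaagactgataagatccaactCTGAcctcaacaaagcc
Snord92, in Wdr43, chr17:71631281-71631365, plus strand: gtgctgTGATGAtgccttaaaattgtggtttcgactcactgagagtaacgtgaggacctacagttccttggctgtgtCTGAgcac
Snord53, in Wdr43, chr17:71640879-71640956, plus strand: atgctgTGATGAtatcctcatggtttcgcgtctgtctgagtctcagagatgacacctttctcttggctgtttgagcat
Of the 23, 12 held the box C letters, 19 the box D letters and 11 both. Outside the exons of coding host transcripts lay 22, all but Gm23187 in Nop56. The snoRNA genes themselves have no row in the count table, so their own levels were not analysed here.

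The E-box letters were looked for in the promoters of RefSeq on GRCm38.p6, each of 300 bases (250 before the transcript start and 50 after it). CACGTG reads the same on both strands. An entry was found for 29 of the 34 genes, and Bop1, Fbl, Npm1, Rrp12 and Rrs1 had none. CACGTG was present in 7 of these 29 (24.1%), against 1271 of the 11632 tested genes with an entry (10.9%) and 2187 of all 27025 genes with an entry (8.09%). A gene with several promoters was counted once, as holding the letters if any of its promoters did. The 7 were Nop2, Grwd1, Ltv1, Utp20, Pes1, Tsr1 and Wdr43. In Nop2 the letters began 60 bases before the start, and in the other 6 they lay within the 50 bases after it. Of these 7, 5 are shown with 12 bases on each side and the E-box in capitals, on the strand of the gene, to place the letters that Myc and Max prefer.
Nop2, chr6:125131811-125131840, plus strand: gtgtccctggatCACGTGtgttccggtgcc
Ltv1, chr10:13193092-13193121, minus strand: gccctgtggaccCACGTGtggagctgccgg
Pes1, chr11:3963965-3963994, plus strand: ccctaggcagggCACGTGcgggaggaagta
Tsr1, chr11:74898092-74898121, plus strand: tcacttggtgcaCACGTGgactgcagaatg
Wdr43, chr17:71616220-71616249, plus strand: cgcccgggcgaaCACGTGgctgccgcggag
A match of 6 letters describes the sequence and does not show that Myc is bound there.

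The libraries held between 23132461 and 33518324 estimated counts, and each of the 34 genes had between 367 and 28140 counts in every library, so that the spread between libraries rather than counting set the precision. Levels are given as log2 CPM, the base-2 logarithm of counts scaled to the library total (CPM) after TMM normalisation with a prior count of 2, and a difference in log2 CPM of 1 is a doubling. Genotypes were compared with the quasi-likelihood test of edgeR, and a positive log2 fold change denotes a higher level in ApcMin adenomas. The study's threshold, an adjusted p under 0.01, was kept.

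By level per length of exon, Npm1 (nucleophosmin, a nucleolar chaperone) stood highest with an RPKM (reads per kilobase of exon and library total, computed here) of 187, followed by Ncl (nucleolin, an abundant nucleolar RNA-binding protein) with 70.5, Noc2l with 33.96 and Nop56 with 29.4. Wdr12 (1.98), Polr1a (3.23) and Utp20 (3.37) stood lowest. These per-length levels are averages over the 6 libraries and use all annotated exons of a gene.

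As a group, the 34 genes lay slightly higher in ApcMin than in Apc1322T adenomas, and no single gene passed the threshold. The fold change was above 0 for 31 of the 34 genes, where 52.4% of all genes tested were above 0. The 3 below 0 were Bop1, Noc4l and Rrp12. The 34 genes moved together from library to library, as described below, so their signs are not separate observations. The count above 0 was 29 with DESeq2's size factors and 33 with upper quartile scaling in the same test. The median log2 fold change was 0.12 (a fold of 1.09), against 0.02 for all genes tested. At an adjusted p under 0.01, edgeR called 0 of the 34 (0% of all genes tested), with a smallest adjusted p of 0.279, and DESeq2 called 0 as well (1.11% of all genes it tested), with a smallest adjusted p of 0.119. At an unadjusted p under 0.05, edgeR gave 5 genes higher in ApcMin, Nop56, Ppan, Gnl3, Wdr43 and Rrs1, or 14.7% of the 34 beside 7.49% of all genes tested, and 0 genes lower, beside 7.60%. For the same 5 genes the 3 ApcMin libraries all lay above the 3 Apc1322T libraries, which held for 11.0% of all genes tested, and no gene had the opposite arrangement, which held for 9.96%. Of the 34 fold changes, 18 were smaller than their standard error, and the 95% intervals of 29 spanned 0.

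**Figure D1:**
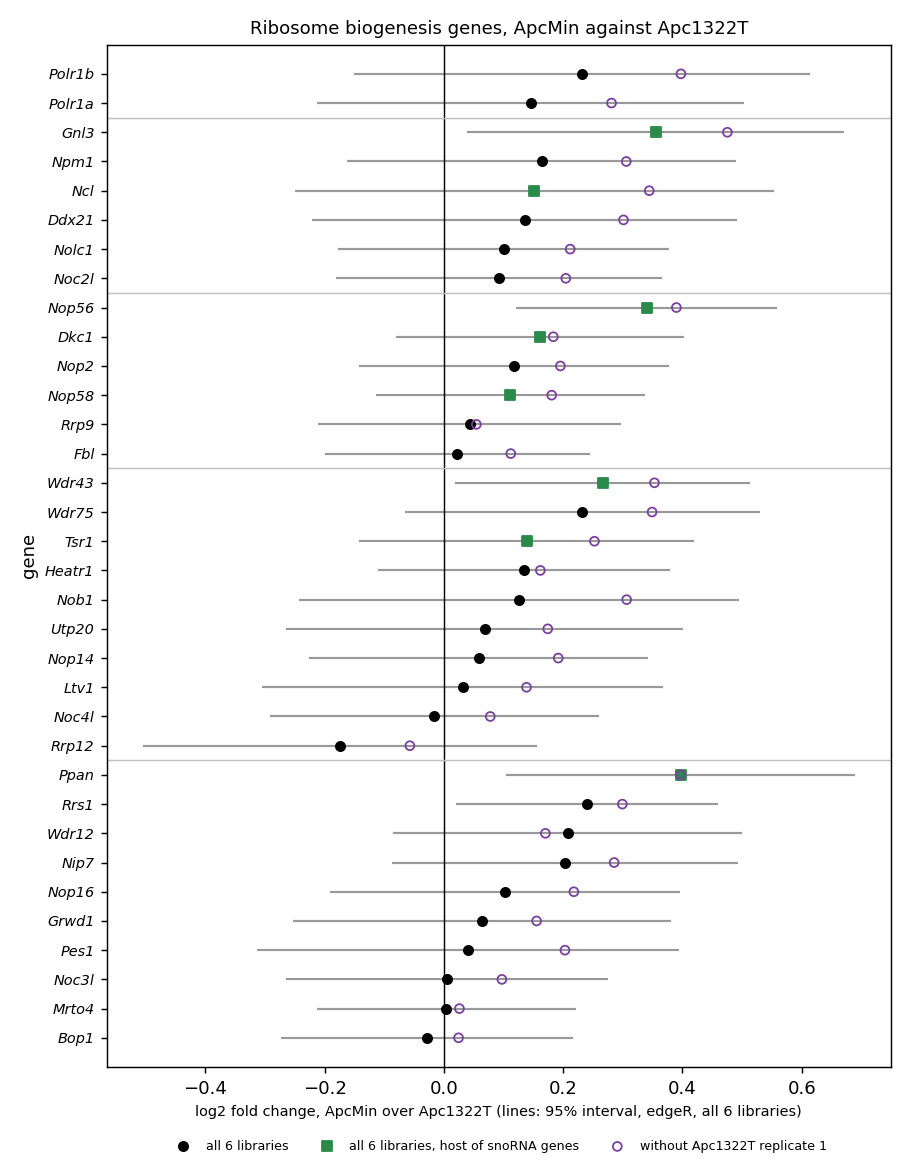
Log2 fold change of each of the 34 genes, ApcMin over Apc1322T (horizontal axis), with genes grouped by role from polymerase I at the top to large subunit assembly at the bottom. Filled symbols are edgeR estimates from all 6 libraries with their 95% intervals, and squares mark host genes of snoRNAs. Open circles are the estimates without Apc1322T replicate 1, the omission that gave the largest median. Of the filled symbols, 31 lie to the right of 0, and 29 intervals cross it.

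The libraries of 1 genotype were not alike in these genes. Averaged over the 34 genes, log2 CPM was 5.87, 5.64 and 5.60 in Apc1322T replicates 1, 2 and 3, and 5.90, 5.71 and 5.89 in ApcMin replicates 1, 2 and 3. Apc1322T replicate 1 thus lay with ApcMin replicates 1 and 3, above ApcMin replicate 2, and the genotypes overlapped. The difference between the genotype means, 5.83 ± 0.11 (SD, n = 3) in ApcMin and 5.70 ± 0.14 (SD, n = 3) in Apc1322T, was about as large as the spread within a genotype.

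This ordering ran through most of the genes. Apc1322T replicate 1 was above both other Apc1322T libraries in 29 of the 34, against 40.8% of all genes tested, and ApcMin replicate 2 was the lowest ApcMin library in 30 of the 34, against 34.1%. Apc1322T replicates 2 and 3 both lay below all ApcMin libraries in 22 of the 34 genes, against 24.0% of all genes tested. These libraries were singled out by their mean over the same 34 genes, which moved together. The counts therefore describe the ordering and are not separate evidence for it. Without Apc1322T replicate 1, edgeR gave 12 of the 34 genes (35.3%) higher in ApcMin at an unadjusted p under 0.05, beside 11.2% of all genes then tested, still 0 lower and 0 at an adjusted p under 0.01, and the median log2 fold change was 0.20. With any other single library left out the median lay between 0.06 and 0.19. The 12 were Gnl3, Nop56, Wdr43, Ppan, Rrs1, Polr1b, Ncl, Npm1, Ddx21, Wdr75, Tsr1 and Nob1. The count was 2 of the 34 without Apc1322T replicate 2 and 1 without Apc1322T replicate 3, beside 3.93% and 4.77% of all genes then tested. It was 3 without ApcMin replicate 1, 5 without ApcMin replicate 2 and 1 without ApcMin replicate 3, beside 6.78%, 6.53% and 5.20%.

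**Figure D2:**
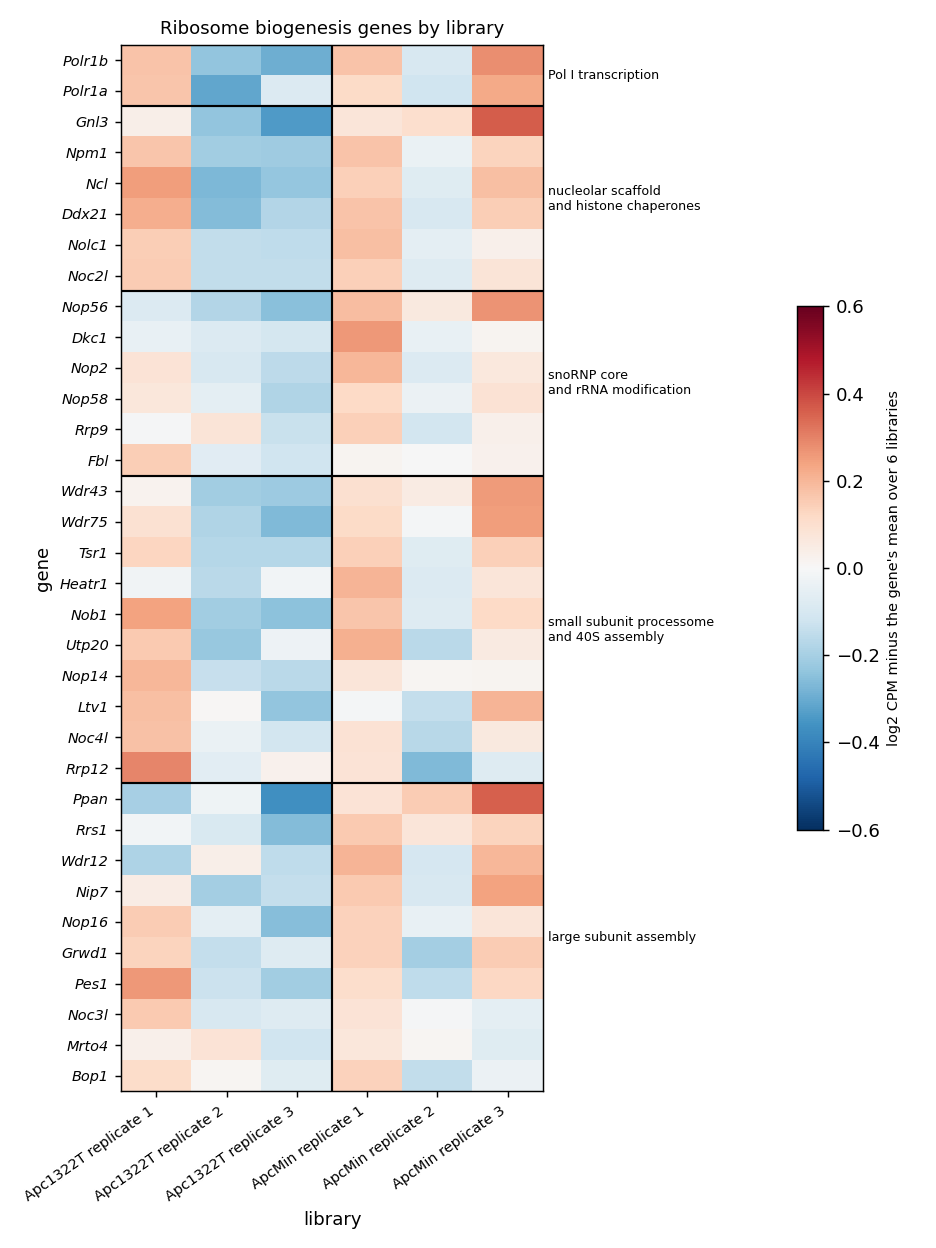
Heat map of the 34 genes (rows, grouped by role) in the 6 libraries (columns), coloured by log2 CPM minus the gene's own mean over the 6 libraries. Apc1322T replicates 2 and 3 are blue in most rows, Apc1322T replicate 1 and ApcMin replicates 1 and 3 are red in most rows, and ApcMin replicate 2 is paler.

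The genes moved together from library to library. Over the 561 pairs among the 34 genes, Pearson's r of log2 CPM across the 6 libraries averaged 0.64 (0.66 after each genotype's mean was removed), whereas it averaged 0.00 over pairs of all genes tested. The highest r, 0.99, was that of Tsr1 with Npm1, and the lowest, -0.53, that of Ppan with Rrp12. With 6 points that share their library and its normalisation, these values only describe the libraries. The genes whose r with the other 33 was lowest on average were Mrto4 (0.23), Rrp12 (0.34), Ppan (0.37) and Wdr12 (0.39).

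The polymerase I subunits Polr1a and Polr1b form the catalytic core that copies ribosomal DNA. Log2 CPM of Polr1b was 5.22, 4.81 and 4.75 in the Apc1322T libraries and 5.22, 4.95 and 5.33 in the ApcMin libraries. Apc1322T replicate 1 equalled ApcMin replicate 1, so the genotypes overlapped, and the log2 fold change was 0.23 ± 0.16 (SE). Polr1a, the largest subunit, had a log2 fold change of 0.15 ± 0.15 (SE), with 5.42, 4.94 and 5.17 in Apc1322T and 5.37, 5.14 and 5.48 in ApcMin. For both genes the lowest libraries were Apc1322T replicates 2 and 3 and ApcMin replicate 2.

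Among the nucleolar chaperones and scaffolds, Gnl3 stood out by its value. Gnl3 encodes nucleostemin, a nucleolar GTP-binding protein of proliferating cells, and lies on chr14:31012433-31019152, minus strand. Its log2 CPM was 5.85, 5.57 and 5.47 in the Apc1322T libraries and 5.88, 5.91 and 6.17 in the ApcMin libraries. The genotypes did not overlap, but Apc1322T replicate 1 came within 0.04 of the lowest ApcMin library. The log2 fold change was 0.36 ± 0.13 (SE), with a 95% interval from 0.04 to 0.67 and an edgeR adjusted p of 0.311.

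The other 5 genes of this group had log2 fold changes between 0.09 and 0.16, all with overlapping genotypes. Ncl had a log2 CPM of 9.73, 9.20 and 9.24 in Apc1322T and 9.62, 9.40 and 9.65 in ApcMin, so that its highest value of all 6 was that of Apc1322T replicate 1. Npm1 read 9.11, 8.74 and 8.74 in Apc1322T and 9.12, 8.91 and 9.08 in ApcMin, with the same replicate level with ApcMin replicate 1. Ddx21, an RNA helicase that acts with polymerase I and snoRNAs, had 7.30, 6.83 and 6.91 against 7.26, 6.99 and 7.23. In each of these 3 genes Apc1322T replicates 2 and 3 were the lowest libraries. Nolc1, a chaperone of snoRNPs, and Noc2l, a nucleolar protein that also inhibits histone acetylation, had log2 fold changes of 0.10 ± 0.12 (SE) and 0.09 ± 0.11 (SE). These values depended on the Apc1322T libraries. The log2 fold changes of Ncl, Npm1 and Ddx21 were 0.34, 0.31 and 0.30 without Apc1322T replicate 1, 0.06, 0.10 and 0.04 without replicate 2, and 0.07, 0.10 and 0.08 without replicate 3. With a single ApcMin library left out they lay between 0.09 and 0.225.

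Of the snoRNP proteins, Nop56 showed the smallest unadjusted p of the 34 genes. Nop56 and Nop58 are paired scaffold proteins of the box C/D particles, in which Fbl (fibrillarin) is the enzyme that methylates ribosomal RNA. Nop56, on chr2:130274430-130279313, plus strand, had a log2 CPM of 6.82, 6.73 and 6.65 in Apc1322T and 7.09, 6.96 and 7.17 in ApcMin. The genotypes were separated by a gap of 0.14, and Apc1322T replicate 1 lay with its own genotype. The log2 fold change was 0.34 ± 0.09 (SE), with a 95% interval from 0.12 to 0.56, an unadjusted p of 0.0080 and an adjusted p of 0.279 by edgeR, and it lay between 0.29 and 0.39 whichever library was left out. The exact two-sided permutation test of its 6 values gave p = 0.10, the smallest that 3 against 3 allows.

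The partners of Nop56 did not show a difference of that size. Nop58 had a log2 fold change of 0.11 ± 0.09 (SE), with 6.86, 6.73 and 6.61 in Apc1322T and 6.91, 6.76 and 6.88 in ApcMin. Fbl had 0.02 ± 0.09 (SE), with an interval from -0.20 to 0.24, and its 3 ApcMin libraries were nearly equal at 6.37, 6.35 and 6.37 between the Apc1322T values of 6.50, 6.28 and 6.23. The differences between Nop56 and its partners were not tested. Dkc1 (dyskerin), the pseudouridine synthase of the box H/ACA particles, had 0.16 ± 0.10 (SE). Its value rested mainly on ApcMin replicate 1, at 5.97 beside values between 5.61 and 5.73 in the other 5 libraries. Nop2, a methyltransferase of large subunit ribosomal RNA, had 0.12 ± 0.11 (SE), and Rrp9, a protein of the U3 particle, had 0.04 ± 0.11 (SE).

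The small subunit processome is the large particle that forms on the nascent precursor. Wdr43, a subunit of it on chr17:71615895-71659031, plus strand, had a log2 CPM of 6.12, 5.89 and 5.88 in Apc1322T and 6.19, 6.15 and 6.35 in ApcMin. The genotypes did not overlap, by a margin of 0.03 between Apc1322T replicate 1 and ApcMin replicate 2. The log2 fold change was 0.27 ± 0.10 (SE), with an interval from 0.02 to 0.51 and an edgeR adjusted p of 0.315. Wdr75, which sits in the same subcomplex, had 0.23 ± 0.12 (SE), with 5.36, 5.09 and 5.01 in Apc1322T and 5.39, 5.26 and 5.52 in ApcMin, where Apc1322T replicate 1 lay above ApcMin replicate 2.

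The remaining 8 genes of small subunit assembly ranged from -0.17 to 0.14. Tsr1, a late-acting assembly factor, had 0.14 ± 0.12 (SE), Heatr1, a processome subunit needed for transcription by polymerase I, 0.13 ± 0.10 (SE), and Nob1, the nuclease that trims the small subunit RNA, 0.13 ± 0.16 (SE). In Nob1 the highest of all 6 libraries was Apc1322T replicate 1, at 5.15 beside 4.70 and 4.66 in the same genotype. The processome proteins Utp20 (0.07), Nop14 (0.06) and Noc4l (-0.02), and Ltv1 (0.03), which acts in late maturation, had log2 fold changes below their standard errors of between 0.12 and 0.14. Rrp12, which takes part in maturation and export of the subunits, had the lowest value of all 34, -0.17 ± 0.14 (SE), with 4.86, 4.51 and 4.60 in Apc1322T and 4.65, 4.31 and 4.49 in ApcMin. Its genotypes overlapped, and its interval ran from -0.50 to 0.16.

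In large subunit assembly, Ppan had the largest fold change of all 34 genes. Ppan, the homologue of the fly gene Peter Pan, is needed early in large subunit maturation and lies on chr9:20888175-20892178, plus strand. Its log2 CPM was 5.10, 5.28 and 4.94 in Apc1322T and 5.39, 5.46 and 5.66 in ApcMin. Here Apc1322T replicate 1 was not the highest of its genotype, and the genotypes did not overlap. The log2 fold change was 0.40 ± 0.12 (SE), a fold of 1.32, with an interval from 0.10 to 0.69 and an edgeR adjusted p of 0.286. It was 0.40 as well without Apc1322T replicate 1, and lay between 0.31 and 0.49 whichever library was left out.

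Rrs1, on chr1:9545408-9547455, plus strand, helps to place the small 5S RNA into the large subunit. It read 5.46, 5.39 and 5.22 in Apc1322T and 5.63, 5.55 and 5.61 in ApcMin. The 3 ApcMin values lay close together (SD 0.04) above all Apc1322T values, and the log2 fold change was 0.24 ± 0.09 (SE), with an interval from 0.02 to 0.46 and an edgeR adjusted p of 0.312.

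**Figure D3:**
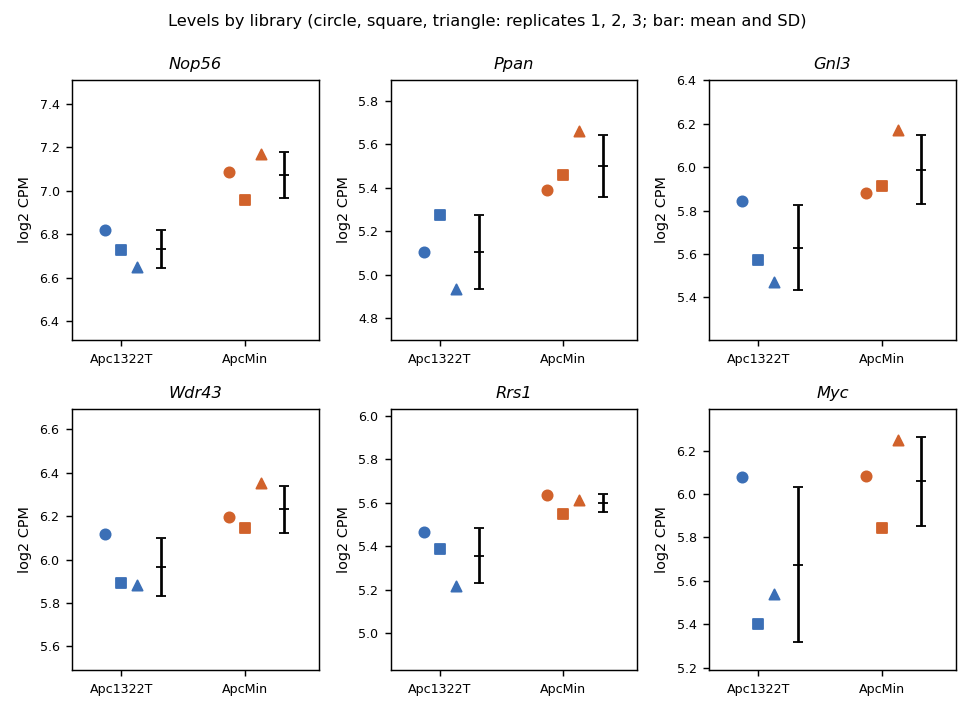
Log2 CPM (vertical axes, each spanning the same range) of the 5 genes at an unadjusted p under 0.05 and of Myc in the 3 Apc1322T and 3 ApcMin libraries, with the mean and SD of each genotype beside the points. In the 5 genes every ApcMin point lies above every Apc1322T point, whereas in Myc Apc1322T replicate 1 (6.08) lies above ApcMin replicate 2 (5.84).

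The PeBoW complex, which Pes1, Bop1 and Wdr12 form and which is needed for large subunit rRNA processing, did not show 1 common value. Wdr12 had a log2 fold change of 0.21 ± 0.12 (SE), Pes1 0.04 ± 0.15 (SE) and Bop1 -0.03 ± 0.10 (SE). Pes1 was highest in Apc1322T replicate 1 (6.66, beside 6.27 and 6.19 in the same genotype and 6.50, 6.24 and 6.52 in ApcMin), whereas Wdr12 was lowest there (4.38, beside 4.60 and 4.41, and 4.77, 4.46 and 4.76). All 3 intervals spanned 0, and the differences between the subunits were not tested.

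Nip7, an RNA-binding assembly factor, had a log2 fold change of 0.20 ± 0.12 (SE). Nop16 had 0.10 ± 0.12 (SE), and Grwd1, which escorts a ribosomal protein to the nucleolus, 0.06 ± 0.13 (SE). Noc3l (0.01 ± 0.11, SE) and Mrto4 (0.00 ± 0.09, SE), which precedes the stalk proteins on the maturing subunit, were closest to 0. The interval for Mrto4, from -0.21 to 0.22, covered smaller differences in either direction.

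Genes that host snoRNAs made up 4 of the 5 genes at an unadjusted p under 0.05, a split that was noticed after the values were seen and is given without a test. Of the 8 host genes, Nop56, Ppan, Gnl3 and Wdr43 were at an unadjusted p under 0.05, and the median log2 fold change of the 8 was 0.21. Of the 26 others, Rrs1 alone was, and their median was 0.10. Among the 223 further tested genes that hold a snoRNA gene on the same strand, 19 were higher in ApcMin at an unadjusted p under 0.05 (8.52%, near the 7.49% of all genes), 14 were lower, and the median was 0.05. All of the 8 hosts but Dkc1 hold 2 or more snoRNA genes. Of the 52 further genes that do, 39 were above 0, with a median of 0.09. At an unadjusted p under 0.05, 5 of these 52 were higher (9.62%) and 1 was lower. In 12 of the 23 snoRNA genes within the set, the annotation also places a transcript of the host that retains the intron, to which reads of the snoRNA could be assigned. By the study's methods, mRNA was isolated from the total RNA before the libraries were made. Whether reads of snoRNAs affected the counts of the hosts was not tested. The 7 genes with an E-box in the promoter window had a median log2 fold change of 0.07, and the 22 without had 0.13.

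The rest of the ribosome biogenesis machinery had a smaller median, a difference that was not tested. Of 163 further genes tested in 5 lists, 119 had a log2 fold change above 0, with a median of 0.07, 6 were higher in ApcMin at an unadjusted p under 0.05 and 3 lower, and edgeR and DESeq2 both called 0 at an adjusted p under 0.01. The counts of 6 and 3 are 3.68% and 1.84% of the 163, less than the share in each direction among all genes tested. Without Apc1322T replicate 1 the counts were 24 higher and 5 lower, where 11.2% of all genes then tested were higher and 2230 of 16851 lower. Without Apc1322T replicate 2 or replicate 3 they were 0 and 3, where 3.93% and 4.77% of all genes were higher. They were 3 and 2 without ApcMin replicate 1, 6 and 2 without ApcMin replicate 2, and 1 and 4 without ApcMin replicate 3. In these 3 fits 6.78%, 6.53% and 5.20% of all genes were higher, and 832, 1025 and 780 genes were lower.

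By list, the other polymerase I machinery had 8 of 14 genes above 0 (median 0.10), further snoRNP and modification factors 12 of 19 (0.04), further small subunit factors 32 of 46 (0.08), further large subunit factors 50 of 60 (0.07), and the exosome with other precursor-cutting enzymes 17 of 24 (0.03). In the small subunit list Rcl1, which takes part in precursor processing, was higher, at 4.20, 3.96 and 4.11 in Apc1322T and 4.51, 4.26 and 4.55 in ApcMin (log2 fold change 0.35 ± 0.12, SE). In the large subunit list Tex10 (0.44 ± 0.17, SE), Urb1 (0.44 ± 0.18, SE) and Surf6 (0.32 ± 0.12, SE) had the largest values among the 5 genes at an unadjusted p under 0.05. In these 4 genes the genotypes did not overlap, by a gap of 0.11 in Surf6, 0.06 in Rcl1, 0.01 in Tex10 and 0.00 in Urb1.

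The 3 genes lower in ApcMin at an unadjusted p under 0.05 were all large subunit factors. Gnl1, a GTP-binding protein related to Gnl3, had 6.14, 6.22 and 6.15 in Apc1322T and 5.86, 5.83 and 5.91 in ApcMin, a log2 fold change of -0.31 ± 0.07 (SE) with an edgeR adjusted p of 0.257. Sbds had -0.37 ± 0.12 (SE), with 6.51, 6.90 and 6.61 against 6.27, 6.28 and 6.41, and Efl1 had -0.30 ± 0.09 (SE), with 5.73, 5.93 and 5.79 against 5.51, 5.46 and 5.59. Sbds and Efl1 proteins act together in the cytoplasm, where they release the factor Eif6 from the nearly finished large subunit. In none of the 3 did the genotypes overlap, and in all 3 Apc1322T replicate 1 was the lowest library of its genotype.

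**Figure D4:**
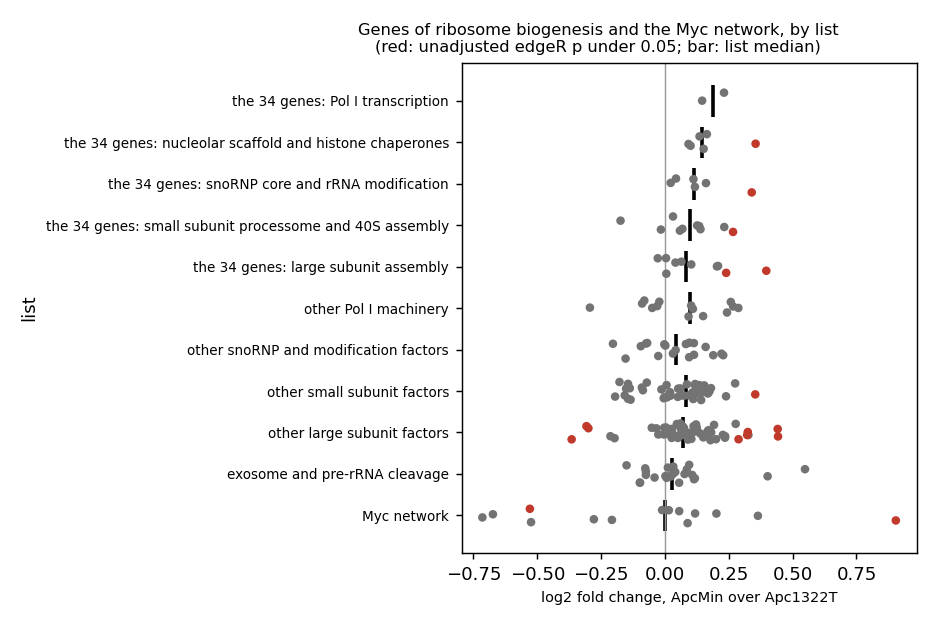
Log2 fold changes, ApcMin over Apc1322T (horizontal axis), of every tested gene in the 5 role groups of the 34 genes, in 5 further lists of ribosome biogenesis genes and in the Myc network (rows); each point is a gene, red points have an unadjusted edgeR p under 0.05 and bars are list medians. The medians of the ribosome biogenesis rows lie between 0.03 and 0.19, and the Myc network, centred at 0.00, spreads from -0.72 to 0.90.

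Myc itself had a log2 fold change of 0.36 ± 0.20 (SE), with an interval from -0.11 to 0.84 and an edgeR adjusted p of 0.411. Its log2 CPM was 6.08, 5.40 and 5.54 in Apc1322T and 6.08, 5.84 and 6.25 in ApcMin. The 3 libraries with the lowest Myc, Apc1322T replicates 2 and 3 and ApcMin replicate 2, were also the 3 with the lowest mean over the 34 genes. The log2 fold change of Myc was 0.60 without Apc1322T replicate 1, 0.23 without Apc1322T replicate 2 and 0.29 without Apc1322T replicate 3. It was 0.36 without ApcMin replicate 1, 0.46 without ApcMin replicate 2 and 0.26 without ApcMin replicate 3.

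Of the 14 genes of the Myc network that were tested, 7 lay above 0 and 7 below, and edgeR called 0 at an adjusted p under 0.01, as did DESeq2. At an unadjusted p under 0.05, 1 was higher and 1 lower, beside 7.49% and 7.60% of all genes tested. The counts were 2 and 5 without Apc1322T replicate 1, where 1887 and 2230 of all 16851 genes were higher and lower. They were 1 and 2 without ApcMin replicate 2 (1103 and 1025 of 16887 genes). Without ApcMin replicate 3 they were 1 and 0 (869 and 780 of 16709 genes). Mycl, a second Myc family member, was higher in ApcMin at an unadjusted p of 0.0056 (adjusted 0.263), with 5.06, 4.39 and 4.38 in Apc1322T and 5.39, 5.80 and 5.42 in ApcMin and a log2 fold change of 0.90 ± 0.22 (SE). Mxi1, which pairs with Max and opposes Myc, was lower at an unadjusted p of 0.0147 (adjusted 0.285), with 6.16, 6.61 and 6.76 in Apc1322T and 6.08, 6.06 and 5.86 in ApcMin and a log2 fold change of -0.53 ± 0.16 (SE). In both genes the genotypes did not overlap, and Apc1322T replicate 1 was the library of its genotype nearest to ApcMin.

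Max, the shared partner of the network, had -0.67 ± 0.29 (SE), with 6.92, 7.74 and 7.83 in Apc1322T and 6.96, 7.15 and 6.44 in ApcMin, and Mxd1, another partner of Max that opposes Myc, had -0.72 ± 0.43 (SE), with 7.84, 8.97 and 9.13 against 8.01, 8.55 and 7.27. In both, the high libraries were Apc1322T replicates 2 and 3 and ApcMin replicate 2, the reverse of the order seen for Myc and for the mean of the 34 genes. Mycn, the third Myc gene, had -0.52 ± 0.28 (SE). The intervals of Max, Mxd1 and Mycn spanned 0 (unadjusted edgeR p of 0.054, 0.148 and 0.108), as did those of the remaining genes. Among further genes that dimerise with Max, log2 fold changes were -0.01 for Mxd3, 0.12 for Mxd4, 0.06 for Mnt and 0.20 for Mga. They were -0.28 for Mlx, 0.02 for Mlxip and -0.21 for Mlxipl, a related branch that responds to glucose. Zbtb17, which recruits Myc to genes it represses, had 0.09.

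Among the cell type markers, the enterocyte list ordered the libraries in the reverse of the 34 genes, as far as their 3 highest and 3 lowest. In bulk tissue fewer cells of a type cannot be told apart from less RNA per cell. The 10 enterocyte markers, genes of differentiated absorptive cells, summed to 16540, 29280 and 29420 CPM in Apc1322T and to 10170, 20900 and 11210 CPM in ApcMin, so that the 3 libraries with the most enterocyte RNA were the 3 with the lowest mean over the 34 genes. All 10 were below 0, with a median log2 fold change of -0.84. At an unadjusted p under 0.05, 2 of the 10 were lower in ApcMin, beside 7.60% of all genes tested. The count was 0 without Apc1322T replicate 2, Apc1322T replicate 3 or ApcMin replicate 1. It was 2 without Apc1322T replicate 1, 4 without ApcMin replicate 2 and 1 without ApcMin replicate 3. In these fits between 510 and 2230 of all genes were lower. The part of the enterocyte markers in the values of the 34 genes was not tested. The 20 proliferation markers did not show the difference between genotypes, with sums of 2092, 1780 and 1849 CPM in Apc1322T and 1981, 1722 and 1852 CPM in ApcMin. Their median was -0.04 (0.04 without Apc1322T replicate 1), with 0 genes at an unadjusted p under 0.05 (2 lower without ApcMin replicate 1). Apc1322T replicate 1 and ApcMin replicate 1 had the highest sums. The 3 lowest sums were those of the 3 libraries with the lowest mean over the 34 genes. By mean log2 CPM of the proliferation markers, however, ApcMin replicate 3 (6.27) lay below Apc1322T replicate 3 (6.28). Mki67, a defining proliferation marker, had -0.07 ± 0.10 (SE).

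The 12 pan-epithelial markers were all lower on average in ApcMin, with sums of 17640, 21150 and 21390 CPM in Apc1322T and 14760, 16710 and 14210 CPM in ApcMin. Of the 12, 9 were lower at an unadjusted p under 0.05, beside 7.60% of all genes tested. The count was 11, 1 and 3 without Apc1322T replicates 1, 2 and 3, where 2230, 510 and 659 of all genes were lower. It was 5, 7 and 1 without ApcMin replicates 1, 2 and 3, where 832, 1025 and 780 were. Between 16709 and 17059 genes were tested in these fits. Epcam was at 11.36, 11.41 and 11.40 against 11.04, 11.12 and 10.81, a log2 fold change of -0.39 ± 0.12 (SE). The 10 fibroblast markers were all above 0, with a median of 0.98. At an unadjusted p under 0.05, 3 were higher, beside 7.49% of all genes tested. Their sums were 1747, 720 and 1031 CPM in Apc1322T and 3803, 1179 and 1626 CPM in ApcMin, and Col1a1 had 0.84 ± 0.62 (SE). The fibroblast values leaned on ApcMin replicate 1, without which the median was 0.30 and Col1a1 was at 0.01. Col1a1 was at 1.36 without Apc1322T replicate 1. Without ApcMin replicate 2, 7 of the 10 fibroblast markers were higher at an unadjusted p under 0.05, beside 6.53% of all genes. The 34 genes therefore stood slightly higher in the genotype with the lower epithelial sums, and whether the share of epithelium had a part in their values was not tested.

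Of the further marker lists, the macrophage and neutrophil list had 10 of 10 genes above 0 with sums of 134 to 170 CPM in Apc1322T and 148 to 543 CPM in ApcMin. Its median was 0.94, and 0.14 without ApcMin replicate 1. The endothelial list had 8 of 8 above 0 (140 to 209 and 192 to 275 CPM, Pecam1 0.26 ± 0.24, SE), and the smooth muscle list 9 of 10 (334 to 514 and 473 to 627 CPM, Acta2 0.59 ± 0.24, SE). The lymphocyte and plasma cell list had 7 of 10 above 0 (758 to 955 and 687 to 1347 CPM, Ptprc 0.55 ± 0.30, SE), and the list of Paneth and goblet cells had 3 of 10 (7412 to 10800 and 6272 to 8027 CPM). Without ApcMin replicate 1, 5 of the 8 endothelial genes were above 0, Pecam1 was at -0.02 and Ptprc at 0.28, and without Apc1322T replicate 2 Acta2 was at 0.35. The smooth muscle list was highest in ApcMin replicate 2 and the lymphocyte and plasma cell list in ApcMin replicate 3. Neither ordered the libraries as the 34 genes did. By their sums, the fibroblast, endothelial, and macrophage and neutrophil lists were lowest in Apc1322T replicates 2 and 3 and ApcMin replicate 2. These were also the 3 libraries with the lowest mean over the 34 genes. Whether these lists had a part in the values of the 34 genes was not tested. The defining markers Epcam, Mki67, Ptprc, Col1a1, Acta2 and Pecam1 were counted in all 6 libraries.

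**Figure D5:**
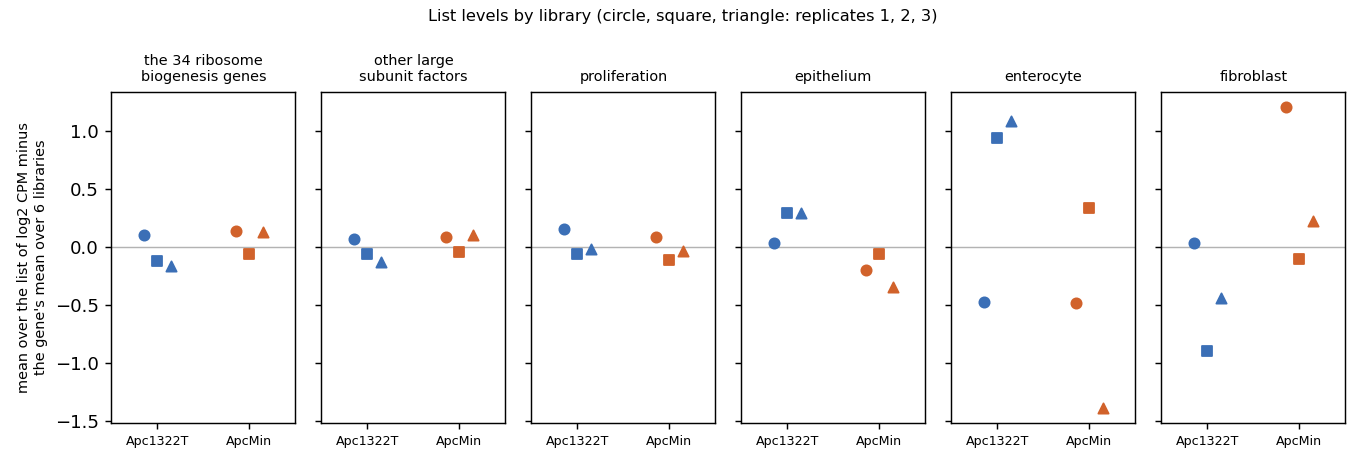
Mean over each gene list of log2 CPM minus the gene's mean over the 6 libraries (vertical axis), by library, for the 34 genes, the further large subunit factors and 4 marker lists. The 34 genes span -0.17 to 0.13, far less than the enterocyte list (-1.39 to 1.09), and the 3 libraries lowest for the 34 genes are the 3 highest for the enterocyte list.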

How the data were processed

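RNA-seq libraries of 3 Apc1322T/+ and 3 ApcMin/+ adenoma samples were grouped by their labels. Single-end reads of 50 bases were assigned by the authors with Salmon to transcripts of GRCm38, and the deposited values are estimated counts summed per gene, not normalised. Of these values 31.5% are not whole within 0.0001, and 23 of the 34 genes hold such a value, since Salmon divides reads between similar transcripts. Estimated counts were rounded, filtered with filterByExpr (minimum count 10, minimum total 15), normalised by TMM and compared between genotypes by edgeR 4.0.16 (quasi-likelihood F test, robust; limma 3.58.1, R 4.3.3) with Benjamini-Hochberg adjustment over 16536 genes. DESeq2 1.42.0 was an alternative. Standard errors were derived from the fold change and its F statistic. Symbols were matched by identifier for 34652 genes. Gene lists were written from general knowledge, and the members and lists were chosen with earlier results of these data known. All 34 members are named, from each further list at most 3 genes in each direction at an unadjusted p under 0.05, all tested Myc network genes, and 6 defining markers. The procedures were tested on simulated data. SnoRNA sequences came from the GENCODE transcripts and promoters from RefSeq. Riok2 was not analysed here. Both genotypes use the same replicate numbers, and the labels do not say that libraries of a genotype come from separate mice, so the p-values measure the spread between these samples, which may be technical.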

Additional observations from a re-analysis of the deposited data

How the results depend on the processing

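Under every alternative run, 0 of the 34 genes passed an adjusted p under 0.01 or under 0.05 (the smallest was 0.080, without Apc1322T replicate 1), and 0 were lower in ApcMin at an unadjusted p under 0.05. The count of 5 higher was the same with DESeq2's size factors, upper quartile scaling, no filter, a stricter filter of 10 counts in every library, limma-voom and no robust estimation. It was 3 by DESeq2's Wald test (Nop56, Ppan and Gnl3), beside 5.39% of all genes. With a library left out it was between 1 and 12, beside 3.93% to 11.2% of all genes. Upper quartile scaling gave 1606 genes higher and 796 lower at an unadjusted p under 0.05, against 1239 and 1256, and 11 instead of 6 further ribosome biogenesis genes higher, with the median of all genes at 0.07. In the same fits, further ribosome biogenesis genes numbered 0 to 24 higher, beside 3.93% to 11.2% of all genes, and 2 to 5 lower. Pan-epithelial markers numbered 1 to 11 lower with a library left out, where 510 to 2230 of all genes were lower. The median of the 34 genes lay between 0.06 and 0.20 in all alternatives.

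Deviations of same-numbered libraries from their genotype means had correlations of -0.01, 0.16 and -0.29. Of the 3 Apc1322T libraries, 1 correlated best with its own number. With 3 libraries per genotype these values cannot tell whether the numbers pair the samples. With the replicate block, 1071 of all genes were higher and 1042 lower at an unadjusted p under 0.05, 2 of the 34 genes (Nop56 and Ppan) were higher at an unadjusted p under 0.05, and Mxd3 read 0.012.

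Of 476 recomputed fold changes of the 34 genes, 27 changed sign, in 10 genes whose fold changes lay within 0.07 of 0. Mrto4 and Noc3l were at -0.00538 and -0.00432 with DESeq2's size factors and at -0.011 and -0.011 by DESeq2, where Mlxip was at -0.00020, and with upper quartile scaling Noc4l, Bop1 and Mxd3 were at 0.040, 0.028 and 0.042. Leaving out a library gave ranges of -0.11 to 0.034 for Bop1, -0.033 to 0.11 for Fbl, -0.074 to 0.14 for Ltv1, -0.056 to 0.047 for Mrto4, -0.040 to 0.097 for Noc3l, -0.077 to 0.078 for Noc4l, -0.0092 to 0.19 for Nop14, -0.051 to 0.20 for Pes1, -0.021 to 0.10 for Rrp9 and -0.026 to 0.17 for Utp20. For other genes the ranges were -0.13 to 0.0066 for Mki67, -0.035 to 0.082 for Mlxip, -0.50 to 0.032 for Mlxipl, -0.036 to 0.18 for Mnt, -0.17 to 0.19 for Mxd3 and -0.020 to 0.44 for Pecam1. The causes were not tested. A prior count of 0.5 left the mean log2 CPM of the 34 genes the same. The intervals leave room for fold changes of single genes up to 0.69 in the positive and -0.50 in the negative direction.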

Other observations

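A list of 34 further genes known to respond to Myc outside ribosome biogenesis (among them genes of nucleotide synthesis, translation and glycolysis) lay on both sides of 0. Of its 34 genes, 15 lay above 0 and 19 below, with a median log2 fold change of -0.01. At an unadjusted p under 0.05, 0 were higher in ApcMin (7.49% of all genes tested) and 1, Ldha, was lower (7.60%). Without Apc1322T replicate 1, 22 of the 34 lay above 0, with a median of 0.06, 6 higher and 3 lower, beside 11.2% of all genes then tested higher. Without ApcMin replicate 2, 22 lay above 0 as well, with a median of 0.06, 0 higher and 1 lower. With any other single library left out between 10 and 15 lay above 0, with 0 higher and at most 1 lower. Ldha, the lactate dehydrogenase subunit of glycolysis, had a log2 CPM of 11.16, 11.11 and 11.06 in Apc1322T and 10.74, 10.96 and 10.77 in ApcMin, a log2 fold change of -0.28 ± 0.11 (SE) with an edgeR adjusted p of 0.318. The difference between this list and the 34 ribosome biogenesis genes was not tested. By library, the mean of log2 CPM minus each gene's mean was 0.16, -0.05 and -0.10 in Apc1322T and 0.09, -0.12 and 0.01 in ApcMin. Apc1322T replicate 1 was thus the highest library here, and the 3 lowest were the same as for the 34 genes.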
